A study of Mus musculus with 12 samples.

Results

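The comparison is between the duodenum of Onecut2 knockout mice and that of wild type mice at postnatal day 30, after weaning. It used 6 of the 12 arrays of the study, 3 for each genotype, chosen by the genotype and age in their labels. The other 6 arrays held the same genotypes at day 15, before weaning. All animals were of strain 129 and of mixed sex, and the knockout animals had the Onecut-2 gene ablated. The labels do not restrict the ablation to a cell type, and no group was treated. The RNA of 5 to 8 mice was pooled for an array, so the spread between arrays is a spread between pools and is smaller than that between single mice.

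Onecut2 is a transcription factor that binds DNA through a cut domain and a homeodomain. Duodenal enterocytes digest peptides and sugars at the brush border of their apical membrane and carry the products into the blood, and crypts hold the stem cells and the antimicrobial Paneth cells. At weaning the diet changes from milk to solid food, and the enterocyte changes its enzymes and transporters with it.

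Values are log2 expression values per gene, so a difference of 1 is a 2-fold change. A gene is called when its adjusted p from limma, a linear model fitted across all genes, is under 0.05. The arrays at day 30 had medians of 7.20 to 7.21 over all features and correlated within a genotype at 0.991 to 0.994. Genes typical of the duodenum were well measured: Pdx1, a transcription factor of the proximal gut, had a wild type mean of 10.43 ± 0.12 and a knockout mean of 10.19 ± 0.05 (SD, n = 3). Because whole segments were used, fewer cells of a type and less RNA per cell cannot be told apart.

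Onecut2 itself was read at 9.63, 9.50 and 9.62 on the wild type arrays and at 8.24, 8.25 and 8.18 on the knockout arrays. The groups lay far apart and each was tight, so the arrays matched their labels. The difference was -1.36 (SE 0.06, limma adjusted p = 8.8e-08). The position of its probes against the ablated sequence was not analysed here, and the signal that remained in the knockout is therefore no measure of transcript. Its relatives Onecut1 and Onecut3 were not called, with differences of 0.10 and -0.06.

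A small share of genes was called between knockout and wild type duodenum at day 30, and most of the called differences were small. With 3 pools per group, the number called is not the number of genes that differ. Of 19938 genes, 395 were called (1.98%), with 207 higher (1.04%) and 188 lower (0.943%) in the knockout. Only 45 of the called genes (0.226% of those tested) changed at least 2-fold, 28 of them higher (0.14%) and 17 lower (0.0853%), and 7 changed at least 4-fold, while 278 changed less than 1.5-fold. The median size of a called difference was 0.43, the smallest was 0.20, and the median over all genes was -0.00. In all 395 the 3 values of one genotype lay above the 3 of the other, which was also true of 15.4% of all genes.

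**Figure D1:**
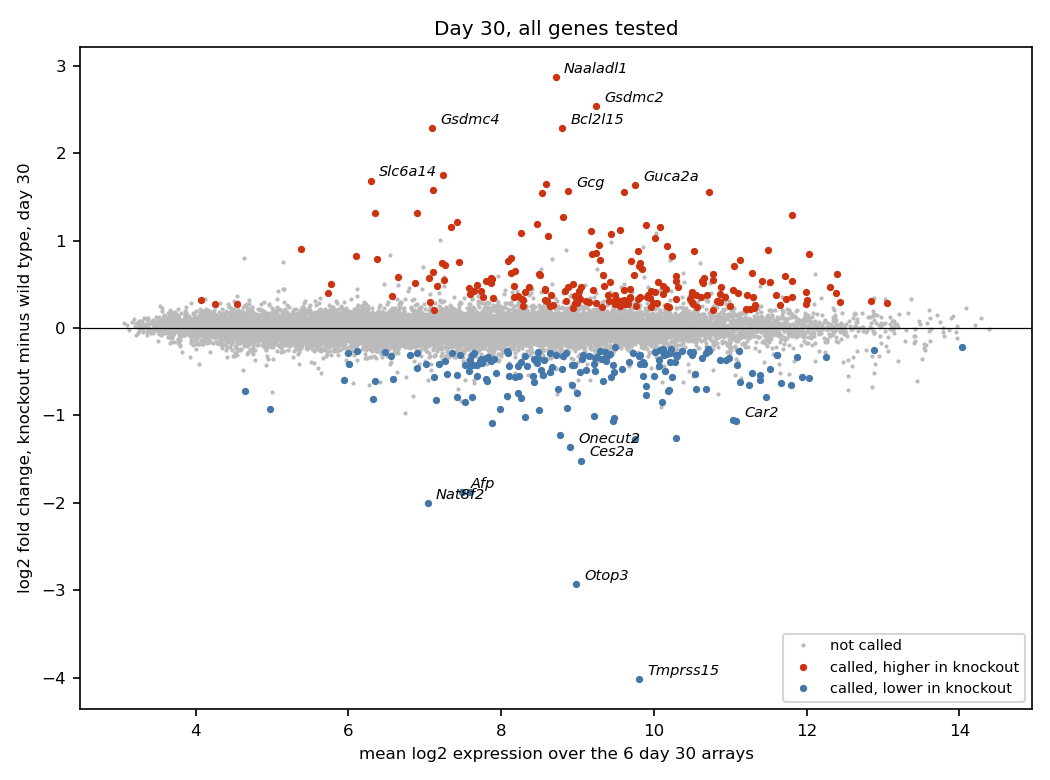
Difference between knockout and wild type at day 30 (log2, vertical) against mean log2 expression over the 6 arrays of that age (horizontal), 1 point per gene tested. Red and blue points are the 207 genes called higher and the 188 called lower, and Tmprss15 at -4.02 and Naaladl1 at 2.87 are the outermost named points.

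Predicted loci and antigen receptor segments were left out of the rankings of rises and falls. The 5 largest rises were those of Naaladl1, Gsdmc2, Gsdmc4, Bcl2l15 and Ppef1, and the 5 largest falls were those of Tmprss15, Otop3, Nat8f2, Afp and Cyp2c55. Among the 24 largest rises, 19 were called under every alternative analysis and without each single array, and the others were Ppef1, Enpp7, Prss3, Rasd1 and Apol10a. Among the 24 largest falls, 18 were called throughout, and the others were Cyp2c55, Tm4sf4, Hsd3b3, Ugt2b5, Abcb1a and Ambp.

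**Figure D2:**
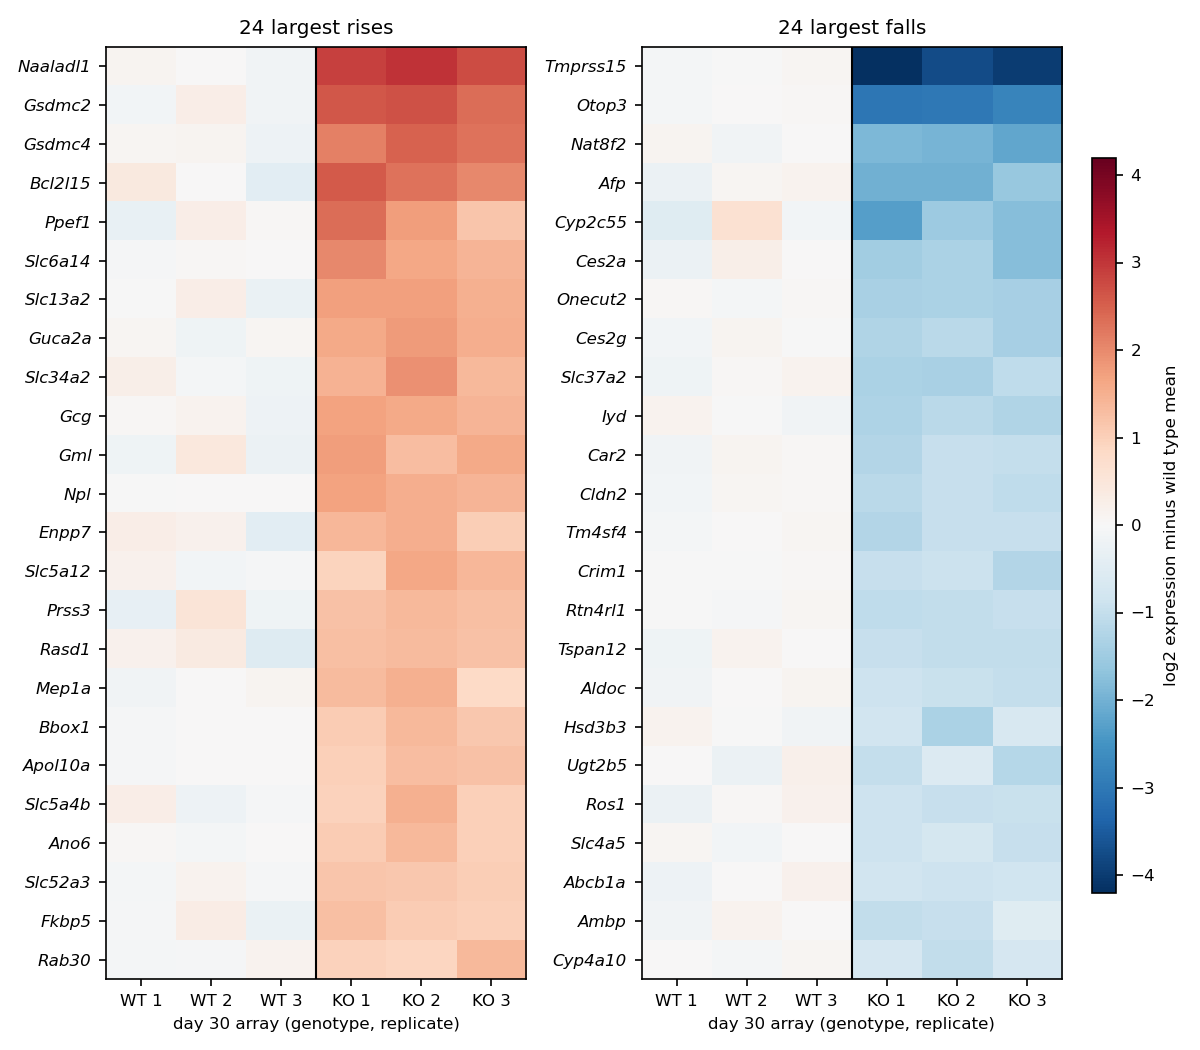
Log2 expression minus the wild type mean on each of the 6 arrays of day 30 (columns: wild type, then knockout, replicates 1 to 3), for the 24 largest rises (left) and 24 largest falls (right). Predicted loci and antigen receptor segments were left out. The genes were chosen as called without overlap of the groups, so the split by genotype follows from that choice; Ppef1 ranges from 7.52 to 8.72 across the knockout arrays, and Cyp2c55 from 8.02 to 9.17 across the wild type arrays.

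Onecut factors bind a core of the letters ATTGAT, or ATCAAT on the other strand, and ATCGAT is an accepted variant that reads the same on both strands. The promoters of the RefSeq table for assembly GRCm38.p6, from 250 bases before to 50 bases after a gene's start, were searched for these letters on both strands. The core was found in 12 of 165 promoters of genes called higher (7.27%) and in 11 of 154 promoters of genes called lower (7.14%), beside 6.83% of 15562 genes tested and 8.4% of all 32851 promoters in the table. Among genes at least 2-fold lower, 3 of 14 promoters held it (21.4%), and among those at least 2-fold higher, 2 of 18 (11.1%). The shares over all genes called higher or lower were near that of all genes tested, while the sets changed at least 2-fold had higher shares from few promoters and were not tested. A match of so short a core is a description of the letters, not of binding.

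The promoter of Tmprss15, the gene with the largest fall, and those of the 3 genes at least 2-fold lower that held the core are given here as read in the direction of each gene with the core in capitals. They lie at chr16:79091048-79091347 on the minus strand (Tmprss15), chr11:115334481-115334780 on the plus strand (Otop3), chr10:3540024-3540323 on the plus strand (Iyd) and chr6:21852484-21852783 on the minus strand (Tspan12). The core lay 1 base after the start in Otop3, 231 bases before it in Iyd and 171 bases before it in Tspan12, and the Tmprss15 window held none.
Tmprss15: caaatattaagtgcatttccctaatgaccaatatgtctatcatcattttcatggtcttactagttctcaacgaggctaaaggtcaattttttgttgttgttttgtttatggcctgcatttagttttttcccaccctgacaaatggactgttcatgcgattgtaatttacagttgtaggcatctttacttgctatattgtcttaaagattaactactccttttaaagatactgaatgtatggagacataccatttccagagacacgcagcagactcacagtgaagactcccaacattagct
Otop3: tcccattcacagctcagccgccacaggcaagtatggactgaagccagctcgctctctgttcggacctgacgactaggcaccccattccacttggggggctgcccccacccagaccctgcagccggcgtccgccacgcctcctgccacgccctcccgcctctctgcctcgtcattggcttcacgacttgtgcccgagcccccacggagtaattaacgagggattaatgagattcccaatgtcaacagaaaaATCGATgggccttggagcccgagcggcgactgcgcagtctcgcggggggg
Iyd: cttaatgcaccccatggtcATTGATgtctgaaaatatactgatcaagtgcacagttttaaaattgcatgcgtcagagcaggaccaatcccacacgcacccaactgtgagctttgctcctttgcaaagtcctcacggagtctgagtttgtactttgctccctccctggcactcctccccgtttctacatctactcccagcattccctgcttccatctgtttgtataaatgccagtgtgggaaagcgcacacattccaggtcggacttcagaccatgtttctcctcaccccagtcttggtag
Tspan12: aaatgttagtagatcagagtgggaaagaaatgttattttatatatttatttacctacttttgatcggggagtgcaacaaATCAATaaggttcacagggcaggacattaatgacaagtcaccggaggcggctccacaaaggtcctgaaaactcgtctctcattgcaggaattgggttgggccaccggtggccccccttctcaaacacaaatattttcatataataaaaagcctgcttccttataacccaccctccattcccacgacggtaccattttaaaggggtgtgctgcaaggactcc

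Of 16 measured brush-border peptidases and related enzymes, 10 rose and 1 fell, with a median difference of 0.38. Over all genes 1.04% were called higher and 0.943% lower, shares to be read beside the counts of every list below. The lists were chosen with earlier results of these data known, so their counts are descriptions and do not test a group. The one that fell was Tmprss15, which encodes enteropeptidase, the brush-border protease that starts the activation of pancreatic trypsinogen. Its values were 11.73, 11.80 and 11.91 in wild type and 7.49, 8.06 and 7.83 in knockout. No array of one genotype came near those of the other, and the difference of -4.02 (SE 0.27, limma adjusted p = 5.7e-06) was 16.2-fold.

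Naaladl1, a zinc peptidase of the glutamate carboxypeptidase family, moved the other way. It was read at 7.39, 7.30 and 7.14 in wild type and at 10.14, 10.31 and 10.00 in knockout. Every knockout array lay above every wild type array, and the knockout mean was 7.32-fold higher, a difference of 2.87 (SE 0.11, limma adjusted p = 1.9e-08). Mep1a, the alpha subunit of the metalloprotease meprin, was read at 6.69, 6.83 and 6.94 in wild type and at 8.15, 8.30 and 7.65 in knockout, with a difference of 1.21 (SE 0.15). Its partner subunit gene Mep1b rose by 0.29 (SE 0.07), from a mean of 12.30 to 12.59. The alpha subunit therefore changed from 6.82 ± 0.13 to 8.03 ± 0.34, and the beta subunit by less on the same scale.

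Further members rose by smaller amounts. Xpnpep2, an aminopeptidase that releases residues before proline, was at 8.80, 8.96 and 8.94 in wild type and at 10.00, 10.11 and 9.81 in knockout, a rise of 1.07 (SE 0.08, limma adjusted p = 1.1e-05). Cndp2, a cytosolic dipeptidase, had values of 9.73, 9.69 and 9.69 in wild type and 10.67, 10.65 and 10.62 in knockout, a rise of 0.94 (SE 0.08, limma adjusted p = 2.9e-05). Dpp4, a dipeptidyl peptidase that also inactivates incretin hormones, rose by 0.59 (SE 0.06). Enpep (0.90), Dpep1 (0.71), Lap3 (0.40) and Ace (0.35) also rose. The calls of Naaladl1, Tmprss15, Mep1a, Xpnpep2, Cndp2 and Dpp4 held under every alternative and without each array. Those of Mep1b (without any 1 of the 6 arrays of day 30), Ace (without knockout replicate 1 or 2 or any wild type array), Enpep (without knockout replicate 1 or 2 or wild type replicate 2 or 3) and Dpep1 (without any knockout array or wild type replicate 1 or 2) ended when an array was left out, and that of Lap3 ended with Xist or the B and plasma cell mean as a covariate.

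**Figure D3:**
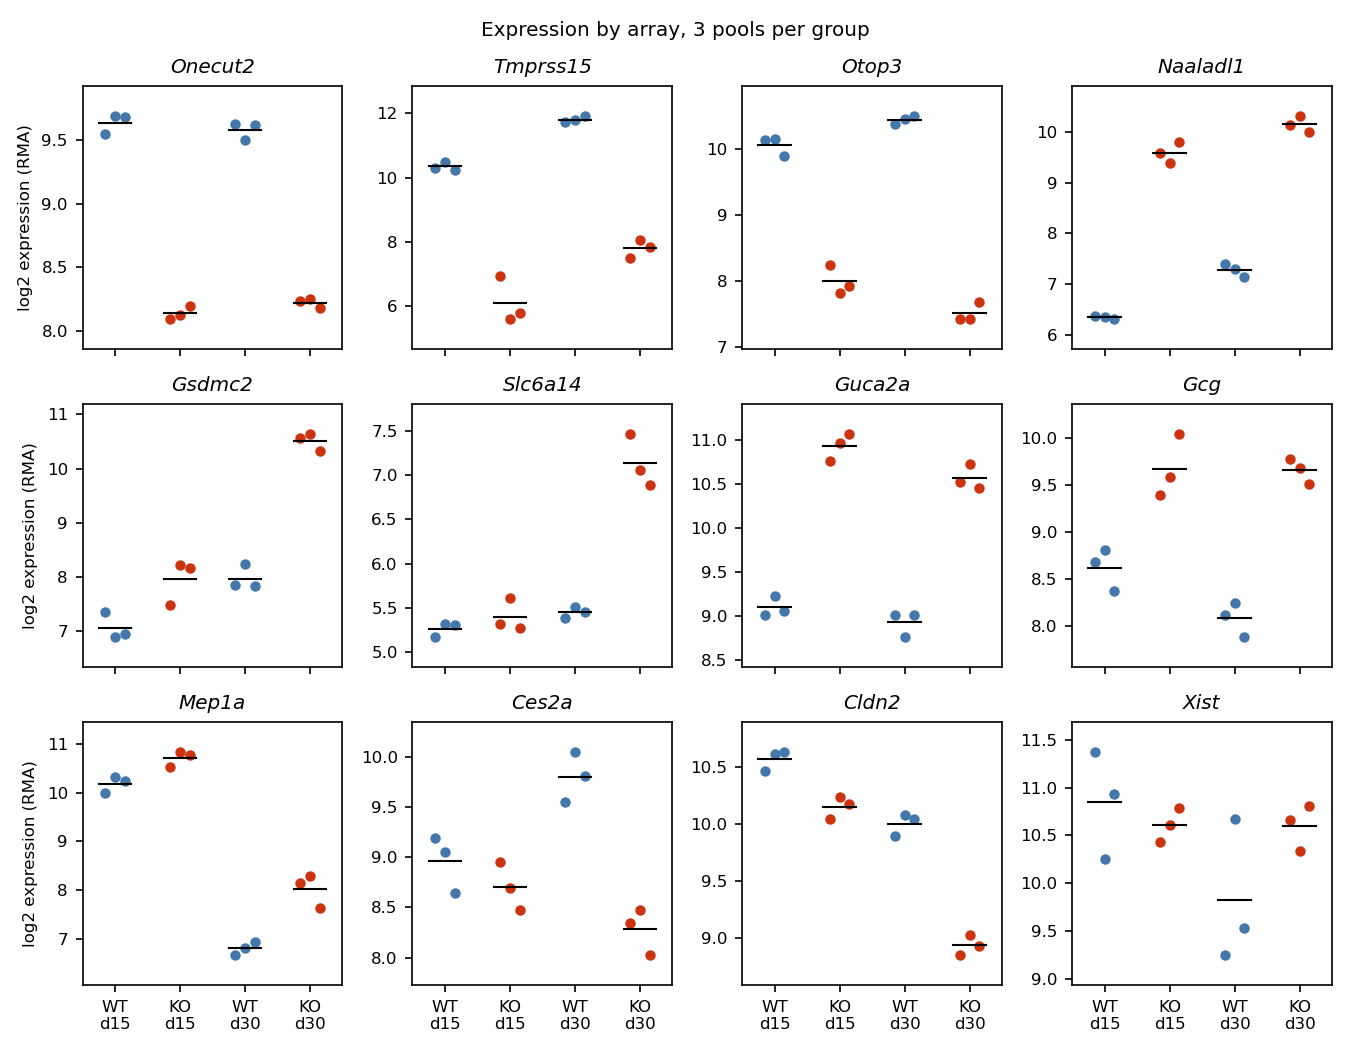
Log2 expression of 12 genes on all 12 arrays, in columns for wild type (WT) and knockout (KO) at day 15 and day 30; points are single arrays and bars are group means of 3. At day 30 the genotypes do not overlap for any panel except Xist, whose wild type values run from 9.26 to 10.67 and whose knockout values run from 10.33 to 10.81.

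Genes for the uptake of amino acids and peptides rose where they were called. Of 18 measured transporters, 8 rose and 0 fell, beside 1.04% and 0.943% of all genes. The median was 0.27 (16 of 18 differences were positive). Slc6a14, a sodium- and chloride-driven transporter of neutral and cationic amino acids, was at 5.39, 5.51 and 5.45 in wild type and at 7.46, 7.06 and 6.89 in knockout. The knockout arrays were all above the wild type arrays, with a 3.22-fold difference (1.69, SE 0.13, limma adjusted p = 1.1e-05). Slc36a1, a proton-coupled transporter of small amino acids, was at 8.93, 8.74 and 8.74 in wild type and at 10.02, 9.70 and 9.53 in knockout, a rise of 0.95 (SE 0.10). Slc16a10, a carrier of aromatic amino acids, was at 8.86, 8.79 and 8.80 in wild type and at 9.62, 9.81 and 9.59 in knockout, a rise of 0.86 (SE 0.06).

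The peptide transporter gene Slc15a1 rose by 0.27 (SE 0.06), the light subunit genes Slc7a7 and Slc7a8, which form basolateral exchangers, by 0.39 and 0.38, Slc43a2 by 0.33 and Slc7a15 by 0.61. Slc6a14, Slc36a1 and Slc16a10 were called throughout. The call of Slc7a7 ended with the B and plasma cell mean as a covariate, and those of the other 4 ended when an array was left out (any 1 of the 6 of day 30 for Slc15a1; knockout replicate 1 or 2 or any wild type array for Slc43a2; wild type replicate 1 or 3 for Slc7a8; knockout replicate 2 or wild type replicate 3 for Slc7a15).

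Genes of sugar and fat absorption rose where they were called. Of 12 measured carbohydrate genes, 4 rose and 0 fell (median 0.31), beside 1.04% and 0.943% of all genes. Slc5a4b, a member of the sodium-glucose transporter family, was at 7.04, 6.55 and 6.70 in wild type and at 7.72, 8.26 and 7.76 in knockout, a rise of 1.15 (SE 0.15, limma adjusted p = 0.001). Slc5a9, a sodium-driven mannose and glucose transporter, rose by 0.78 (SE 0.08), and Slc5a1, the main apical glucose transporter, by 0.29 (SE 0.05). Lct, encoding lactase, was at 10.998, 10.34 and 10.73 in wild type and at 11.20, 11.67 and 11.34 in knockout. The groups did not overlap but wild type spread widely, and the rise was 0.71 (SE 0.14, limma adjusted p = 0.021). The Lct call ended without knockout replicate 2, wild type replicate 2 or wild type replicate 3, and that of Slc5a1 with the 6 arrays of day 30 alone.

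Of 24 measured genes of fat absorption, 4 rose and 0 fell (median 0.10), beside 1.04% and 0.943% of all genes. Those that rose were Gpat3 (0.43) and Dgat2 (0.35), enzymes of triglyceride synthesis, the fatty acid binding protein gene Fabp1 (0.31) and the fatty acid receptor gene Cd36 (0.38). The Cd36 call ended without knockout replicate 1 or 2 or any wild type array, the Fabp1 call without replicate 2 of either genotype, and those of Gpat3 and Dgat2 in the 6 arrays of day 30 with the replicate number as a block. Outside the list, Enpp7, which encodes the alkaline sphingomyelinase of the brush border, was at 6.50, 6.41 and 5.80 in wild type and at 7.64, 7.75 and 7.28 in knockout, a rise of 1.32 (SE 0.20). Bbox1, the last enzyme of carnitine synthesis, rose from 7.87 ± 0.04 to 9.06 ± 0.15, a difference of 1.19 (SE 0.10, limma adjusted p = 2.4e-05).

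Transporters of organic anions, phosphate and vitamins were among the largest rises, whereas a proton channel gene was the second largest fall. Slc13a2, the sodium-driven citrate transporter, was at 7.76, 8.03 and 7.50 in wild type and at 9.50, 9.49 and 9.24 in knockout, a rise of 1.65 (SE 0.13). Slc34a2, the apical sodium-phosphate transporter, was at 6.58, 6.24 and 6.14 in wild type and at 7.79, 8.25 and 7.67 in knockout, a rise of 1.58 (SE 0.15). Slc5a12, a lactate and monocarboxylate transporter, rose by 1.32 (SE 0.18) and Slc52a3, the apical riboflavin transporter, by 1.12 (SE 0.10).

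Otop3, which encodes a proton channel of the otopetrin family, was at 10.38, 10.45 and 10.50 in wild type and at 7.42, 7.43 and 7.68 in knockout. Its groups were each tight and lay 7.63-fold apart, a fall of 2.93 on the log2 scale (SE 0.11, limma adjusted p = 1.9e-08). The Otop3 promoter printed above holds the variant ATCGAT 1 base after the start, and a link of these letters to the fall was not tested. Slc26a3, an apical chloride-bicarbonate exchanger, had a difference of -0.42 (SE 0.06). Slc4a5, a sodium-bicarbonate cotransporter, had one of -0.85 (SE 0.08), and Slc37a2, a sugar phosphate exchanger, one of -1.25 (SE 0.10). Over the 17 measured genes of this list of anion and proton transporters, exchangers and channels, 2 rose, 2 fell and the median was -0.05. Those called were Slc13a2, Slc34a2, Otop3 and Slc26a3, beside 1.04% called higher and 0.943% lower over all genes. The Slc26a3 call ended with the B and plasma cell mean as a covariate.

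Guanylin peptides, which act on an apical guanylate cyclase to drive salt and water secretion, rose. Guca2a was at 9.01, 8.76 and 9.02 in wild type and at 10.52, 10.72 and 10.46 in knockout, a rise of 1.64 (SE 0.10, limma adjusted p = 3.5e-06). Guca2b, which encodes uroguanylin, was at 11.79, 11.54 and 11.50 in wild type and at 12.40, 12.58 and 12.39 in knockout, a rise of 0.85 (SE 0.08, limma adjusted p = 5.6e-05). Both genes separated the genotypes on every array. Of the other 10 members measured in this list, which also holds genes of chloride secretion, only Car2 was called. Car2, the cytosolic carbonic anhydrase, was at 11.46, 11.70 and 11.65 in wild type and at 10.38, 10.65 and 10.60 in knockout, a difference of -1.06 (SE 0.13).

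In the gasdermin family, whose members form membrane pores once cleaved, 2 of 8 measured genes rose. Gsdmc2 was at 7.85, 8.24 and 7.83 in wild type and at 10.57, 10.64 and 10.33 in knockout. Gsdmc4 was at 6.05, 6.05 and 5.75 in wild type and at 8.06, 8.43 and 8.24 in knockout. The rises were 5.81-fold (2.54, SE 0.19) and 4.89-fold (2.29, SE 0.15), while Gsdmc had a difference of 0.29 (SE 0.11, limma adjusted p = 0.29) and was not called. The Gsdmc genes are close copies of one another, so probes of one may also take up RNA of another. Bcl2l15, of the Bcl2 family of cell death regulators, was at 8.06, 7.69 and 7.23 in wild type and at 10.22, 9.93 and 9.69 in knockout, a rise of 2.29 (SE 0.19).

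Gut hormone genes moved in both directions while the transcription factors of hormone-secreting cells did not pass. Of 17 measured hormone genes, 4 rose and 3 fell (median -0.02), and of 13 transcription factors none was called. Over all genes 1.04% were called higher and 0.943% lower, so no call among 13 factors is near these shares. Gcg, the proglucagon gene of L cells, was at 8.12, 8.25 and 7.89 in wild type and at 9.78, 9.68 and 9.51 in knockout, a 2.97-fold rise (1.57, SE 0.16, limma adjusted p = 0.00011). Gip, the incretin of K cells, was at 10.01, 10.13 and 10.10 in wild type and at 10.61, 10.54 and 10.51 in knockout, a rise of 0.47 (SE 0.06). Cck, which triggers release of pancreatic enzymes and bile, rose by 0.38 (SE 0.07), and the neurotensin gene Nts by 0.90 (SE 0.16).

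The falls were those of Ghrl (ghrelin), of Tph1, the first enzyme of serotonin synthesis in enterochromaffin cells, and of Sct (secretin). Ghrl was at 8.05, 8.26 and 8.05 in wild type and at 7.48, 7.34 and 7.69 in knockout, a difference of -0.61 (SE 0.09). Tph1 was at 7.65, 8.09 and 8.14 in wild type and at 7.44, 7.42 and 7.36 in knockout, a difference of -0.55 (SE 0.10), and Sct differed by -0.32 (SE 0.07). Among the transcription factors, the smallest p values belonged to Rfx6 (0.28, limma adjusted p = 0.21) and Neurod1 (-0.26, limma adjusted p = 0.3). Gcg and Gip were called throughout. The calls of Cck (knockout replicate 1 or 2 or wild type replicate 1), Nts (knockout replicate 1 or wild type replicate 3), Tph1 (wild type replicate 2 or 3) and Sct (knockout replicate 1 or 3 or wild type replicate 2 or 3) ended without the array named, and that of Ghrl ended in the 6 arrays of day 30 with the replicate number as a block.

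Paneth cell genes were mostly higher. Of 8 measured, 5 rose and 1 fell (median 0.53), beside 1.04% and 0.943% of all genes. Pla2g2a, a secreted antimicrobial phospholipase, was at 8.07, 8.08 and 8.12 in wild type and at 9.22, 9.26 and 8.94 in knockout, a rise of 1.05 (SE 0.11, limma adjusted p = 0.00018). Mmp7, the protease that activates mouse defensins, was at 10.03, 10.13 and 10.11 in wild type and at 11.001, 11.02 and 10.90 in knockout, a rise of 0.89 (SE 0.08). Itln1, a lectin of Paneth and goblet cells, rose by 0.62 (SE 0.06), and the defensin gene Defa24 by 0.47 (SE 0.08).

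Mptx1, a pentraxin of the crypt, went against this group. It was at 7.88, 7.97 and 8.19 in wild type and at 7.22, 7.33 and 7.13 in knockout, a difference of -0.79 (SE 0.08, limma adjusted p = 0.00017). Habp2 rose by 0.31, a call that ended without any 1 of the 6 arrays of day 30, and the Defa24 call ended with the B and plasma cell mean as a covariate. Defensin genes are near-identical copies, so Defa24 may include RNA of its relatives.

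No gene of the goblet cell (12 measured) or tuft cell (10 measured) lists was called, with medians of 0.02 and -0.00. The share called over all genes was 1.98%, so an absence of calls in lists this short does not set them apart. At an unadjusted p under 0.05, limma gave 2238 genes (11.2%) over the whole table. Muc2, the secreted mucin of goblet cells, had means of 12.23 ± 0.06 in wild type and 12.46 ± 0.10 in knockout, and Dclk1, a tuft cell kinase, had means of 7.13 ± 0.04 and 6.91 ± 0.18. Among 14 stem cell genes and Wnt targets, Lgr5, the receptor that marks crypt stem cells, and Rnf43, which limits Wnt receptors, fell. Lgr5 was at 7.75, 7.74 and 7.94 in wild type and at 7.40, 7.46 and 7.29 in knockout, a difference of -0.43 (SE 0.09, limma adjusted p = 0.024). Rnf43 differed by -0.41 (SE 0.07), and 11 of the 14 differences were negative (median -0.12). The Lgr5 call ended without knockout replicate 1 or 3 or wild type replicate 3, and that of Rnf43 without wild type replicate 3.

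All 19 measured cell cycle genes had positive differences, of 0.02 to 0.23 (median 0.09), and 1 was called, beside 1.98% of all genes. The called gene, Rrm2, encodes a subunit of ribonucleotide reductase and differed by 0.23 (SE 0.05), a call that ended without any 1 of the 6 arrays of day 30. None of 17 regional and epithelial transcription factors was called, beside 1.98% of all genes. Their largest difference was that of Pdx1 (-0.24, SE 0.07, limma adjusted p = 0.13).

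**Figure D4:**
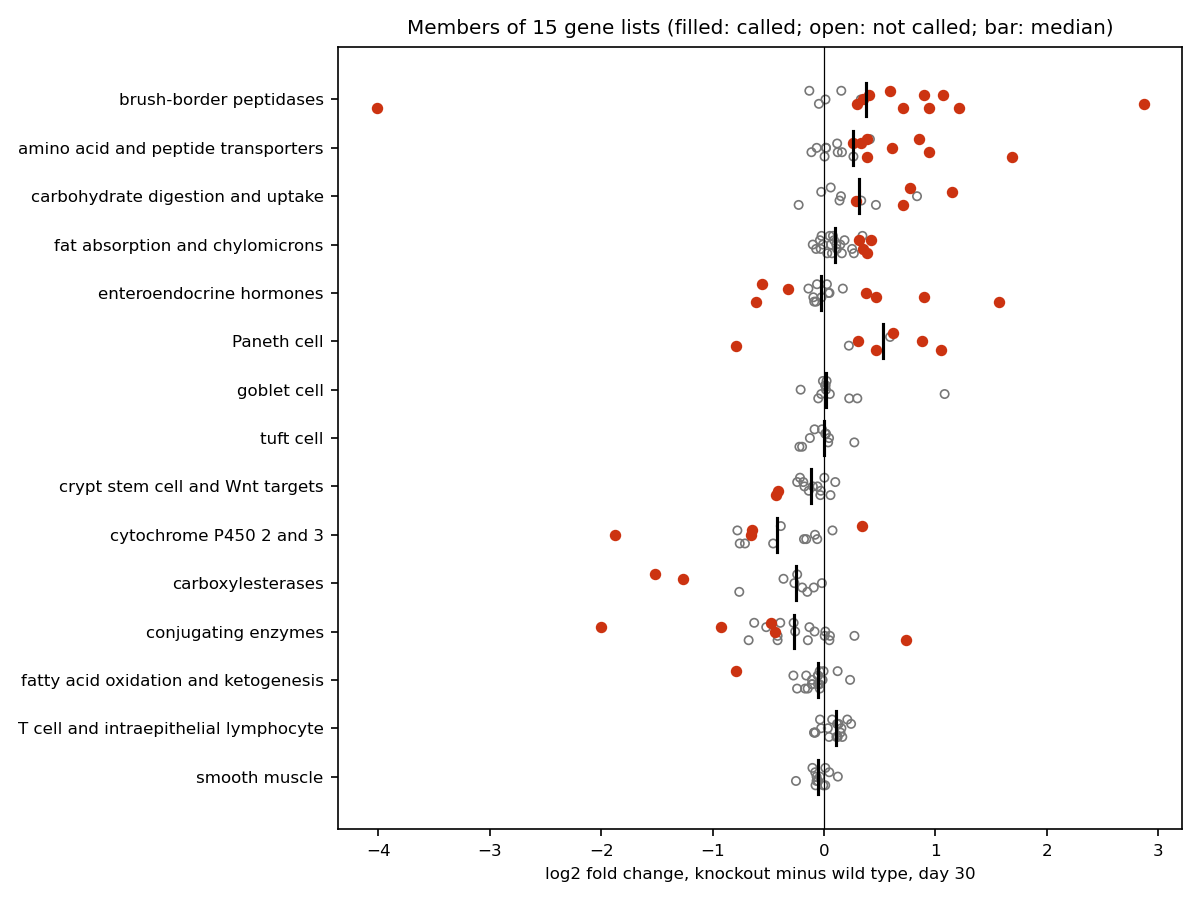
Difference between knockout and wild type at day 30 (log2, horizontal) for the measured members of 15 gene lists (rows); filled points were called, open points were not, and bars are list medians. The peptidase and amino acid transporter rows hold 11 and 8 called genes, and all carboxylesterase members lie below 0.

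Most called genes for enzymes that act on drugs and other foreign compounds fell. Of 14 measured cytochrome P450 genes of families 2 and 3, 3 fell and 1 rose, beside 0.943% and 1.04% of all genes. In this list 12 of the differences were negative (median -0.42). Cyp2c55 was at 8.02, 9.17 and 8.41 in wild type and at 6.21, 7.01 and 6.75 in knockout. Its wild type arrays spread over more than a unit, and the difference was -1.88 (SE 0.33, limma adjusted p = 0.01). Cyp2c65 and Cyp3a25 differed by -0.65 and -0.66, and Cyp2u1 by 0.35. None of these 4 calls was free of single arrays: Cyp2c55 ended without knockout replicate 1, Cyp2u1 without knockout replicate 1 or 2 or wild type replicate 1, Cyp3a25 without knockout replicate 1 or 3 or wild type replicate 2 or 3, and Cyp2c65 without those or wild type replicate 1. The Cyp3a25 call also ended without any 1 of the 6 arrays of day 15, which share the estimate of spread.

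Carboxylesterases hydrolyse esters of drugs and lipids. All 10 measured had negative differences (median -0.25), and 2 were called, beside 0.943% of all genes called lower. Ces2a was at 9.55, 10.05 and 9.81 in wild type and at 8.35, 8.48 and 8.03 in knockout, a difference of -1.52 (SE 0.17). Ces2g was at 10.27, 10.50 and 10.38 in wild type and at 9.12, 9.24 and 9.001 in knockout, a difference of -1.27 (SE 0.12). In both genes the groups were separated by far more than their SDs, while Ces2b, another member, had means of 9.12 ± 0.15 and 8.36 ± 0.19 and was not called (limma adjusted p = 0.12).

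Of 21 conjugating enzymes, 4 fell and 1 rose (median -0.27), beside 0.943% and 1.04% of all genes. Nat8f2, of a family of N-acetyltransferases, was at 8.17, 7.90 and 8.05 in wild type and at 6.17, 6.09 and 5.86 in knockout, a fall of 2.00 on the log2 scale (SE 0.10, limma adjusted p = 2.0e-07). Ugt2b5, a glucuronosyltransferase, differed by -0.92 (SE 0.15), and the glutathione transferases Gstm6 and Gstm1 by -0.48 and -0.44. Ugt2b36 rose by 0.74 (SE 0.13). These families hold close copies, so a probe may also take up RNA of a relative. The Gstm1 call ended without knockout replicate 1 or 3 or wild type replicate 2 or 3, that of Gstm6 without knockout replicate 1 or wild type replicate 2, that of Ugt2b36 without wild type replicate 2, and that of Ugt2b5 with Xist or the B and plasma cell mean as a covariate.

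The apical efflux pump genes Abcb1a, which encodes P-glycoprotein, and Abcc2 fell, and no other of 11 xenobiotic receptors and pumps was called. Abcb1a was at 10.32, 10.57 and 10.72 in wild type and at 9.73, 9.66 and 9.68 in knockout, a difference of -0.84 (SE 0.14, limma adjusted p = 0.0063). Abcc2 was at 11.85, 11.995 and 12.09 in wild type and at 11.43, 11.45 and 11.16 in knockout, a difference of -0.63 (SE 0.09). Nr1i2, the xenobiotic receptor that switches on many such genes, was not called (0.12, SE 0.05). The Abcb1a call ended with the B and plasma cell mean as a covariate.

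Among 20 hydroxysteroid and retinoid dehydrogenases, 4 fell and 0 rose (median -0.03). They were Hsd3b3 (-0.93), Rdh7 (-0.59), Hsd17b13 (-0.49) and Hsd17b11 (-0.33), and each call ended under at least 1 alternative: with Xist as a covariate for all 4, and without knockout replicate 1 (Rdh7 and Hsd17b11), wild type replicate 1 (Hsd3b3), wild type replicate 2 (Hsd3b3 and Hsd17b11) or wild type replicate 3 (Hsd17b11). In retinoid handling, Lrat, the enzyme that esterifies retinol for storage and transport, was at 8.59, 8.68 and 8.70 in wild type and at 7.72, 8.06 and 7.77 in knockout. Its groups did not overlap, with a difference of -0.81 (SE 0.08, limma adjusted p = 0.00012), and none of the other 8 genes of the list was called. Acaa2, a mitochondrial thiolase, was the 1 called gene among 20 of fatty acid oxidation, at 11.81, 11.87 and 11.91 in wild type and 10.97, 11.12 and 11.13 in knockout (-0.79, SE 0.06).

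Afp, the fetal serum protein gene, was at 8.19, 8.52 and 8.58 in wild type and at 6.40, 6.41 and 6.84 in knockout. It was 3.68-fold lower in the knockout (-1.88, SE 0.14, limma adjusted p = 1.1e-05). Ambp, which encodes alpha-1-microglobulin and bikunin, differed by -0.83 (SE 0.13), and the transthyretin gene Ttr by -0.44 (SE 0.09), a call that ended without replicate 1 or 2 of the knockout or 2 or 3 of wild type. Cldn2, a claudin that makes tight junctions permeable to cations and water, was at 9.89, 10.07 and 10.04 in wild type and at 8.86, 9.03 and 8.93 in knockout, a difference of -1.06 (SE 0.07, limma adjusted p = 9.4e-06). It was the only called gene among 15 tight junction genes and among 9 genes of calcium uptake, where Trpv6, the apical calcium channel gene, had a difference of -0.57 (SE 0.21, limma adjusted p = 0.27).

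The remaining large falls were of varied function. Iyd, which removes iodine from iodotyrosines, was at 9.52, 9.38 and 9.25 in wild type and at 8.08, 8.25 and 8.13 in knockout (-1.23, SE 0.12). Crim1, a membrane protein that binds bone morphogenetic proteins, differed by -1.03 (SE 0.08), Rtn4rl1, of the Nogo receptor family, by -1.02 (SE 0.10), the tetraspanin gene Tspan12 by -1.004 (SE 0.09), the glycolytic enzyme gene Aldoc by -0.94 (SE 0.08) and the receptor tyrosine kinase gene Ros1 by -0.92 (SE 0.10). These 6 calls held throughout. Tm4sf4 differed by -1.06 (SE 0.18), a call that ended without knockout replicate 1.

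Among the remaining large rises, Npl, which breaks down sialic acid, stood out for its even wild type values of 7.74, 7.76 and 7.77 against 9.44, 9.27 and 9.19 in knockout (1.54, SE 0.13, limma adjusted p = 2.9e-05). Ano6, a calcium-activated phospholipid scramblase, was at 9.56, 9.43 and 9.52 in wild type and at 10.57, 10.87 and 10.52 in knockout (1.15, SE 0.09, limma adjusted p = 1.2e-05). Fkbp5, a chaperone partner and target of the glucocorticoid receptor, rose by 1.11 (SE 0.14), the only called gene of 12 in the glucocorticoid list (median 0.15). Ppef1, a protein phosphatase with calcium-binding motifs, was at 6.05, 6.66 and 6.41 in wild type and at 8.72, 8.11 and 7.52 in knockout. The knockout values spread widely, and the difference of 1.75 (SE 0.39, limma adjusted p = 0.038) was no longer called without knockout replicate 1 or 2 or any wild type array.

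Several groups of genes held few or no calls. Over all genes tested 1.98% were called, so few or no calls in lists this short are near that share. Ada, the purine salvage enzyme adenosine deaminase, was at 12.68, 13.02 and 13.03 in wild type and at 12.80, 12.57 and 12.60 in knockout, and the groups overlapped (-0.25, SE 0.17, limma adjusted p = 0.67). None of 14 purine salvage genes, 18 respiratory chain genes, 11 ER stress genes or 15 microbe-induced defence genes was called. In the defence list the median was 0.30, and Duox2, the peroxide-producing oxidase, was at 8.80, 9.18 and 8.86 in wild type and at 10.30, 9.75 and 9.73 in knockout (0.98, SE 0.24, limma adjusted p = 0.064). None of 15 interferon-stimulated genes was called either (median -0.23, 14 of 15 differences negative), nor any of 8 MHC class II or 15 extracellular matrix genes. The mean of the interferon-stimulated genes ran from 8.71 to 9.19 across wild type arrays and from 8.34 to 8.96 across knockout arrays, so the groups overlapped. Of 13 suckling-stage enterocyte genes, 2 rose, Slc34a2 and the lysosomal enzyme gene Gusb (0.38), with a median of 0.02. The Gusb call ended with Xist or the B and plasma cell mean as a covariate and in the 6 arrays of day 30 with the replicate number as a block. Iron genes gave 1 rise, that of the transferrin receptor gene Tfrc (0.38, a call that ended with the 6 arrays of day 30 alone), and 1 fall, that of the ferritin heavy chain gene Fth1 (-0.22, a call that ended without any 1 of the 6 arrays of day 30). Cholesterol synthesis gave 1 fall of 18 (Ebp, -0.41), lysosomal hydrolases 1 fall of 17 (Gla, -0.51), bile acid genes 1 rise of 11 (Cyp27a1, 0.37) and glycosyltransferases 1 rise of 18 (Fut4, 0.44). The calls of Ebp, Cyp27a1 and Fut4 each ended without some of the 6 arrays, among them knockout replicate 1 and wild type replicate 3.

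Markers of other cell types and tissues and of the sex of the pooled mice were compared between the genotypes. None of the genes of smooth muscle (13), endothelium (10), T cells (17), macrophages and mast cells (14), enteric neurons and glia (12) or B and plasma cells (12) was called. Over all genes 1.98% were called, a share at which lists this short hold few or no calls. The mean of the B and plasma cell genes was 8.26 to 8.31 in wild type and 8.11 to 8.20 in knockout, without overlap. A fit with this mean as a covariate therefore separates it poorly from genotype, and a call that ended there need not be weak. The mean of the pancreas acinar genes ran from 12.41 to 13.14 in wild type and from 12.31 to 12.73 in knockout, and 15 of its 16 differences were negative. The exception among these 16 was Prss3, a trypsin gene, at 10.81, 11.70 and 10.98 in wild type and 12.41, 12.53 and 12.43 in knockout (1.30, SE 0.23). Its call ended without wild type replicate 3, and features with several gene symbols are not part of the list. Of 13 stomach and Brunner gland genes, Gkn3 (-0.33) and Cblif (-0.56) fell, calls that ended without wild type replicate 2 or 3, among other arrays.

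Xist, which is transcribed from the inactive X chromosome of females, was at 9.26, 10.67 and 9.53 in wild type and at 10.66, 10.33 and 10.81 in knockout (0.78, SE 0.33, limma adjusted p = 0.37). The Y-linked gene Kdm5d was at 8.16, 7.66 and 8.01 in wild type and at 7.51, 7.70 and 6.82 in knockout. Wild type replicates 1 and 3 thus had lower Xist than every knockout pool, while wild type replicate 2 lay among them. With Xist as a covariate 185 genes were called, 176 of them shared with the 395, and with the B and plasma cell mean 141, of which 135 were shared. No gene of the 395 changed its sign in either fit, and their part in the remaining calls was not tested. Of the genes on chromosome 18, which carries Onecut2, 19 of 471 were called (4.03%), beside 0.865% to 3.5% on other chromosomes.

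The effect at day 30 was set beside that at day 15, which came from arrays of its own. Both ages were fitted together and share each gene's estimate of spread, so the calls at the ages are not fully independent. At day 15 764 genes were called (3.83%), with 360 higher (1.81%) and 404 lower (2.03%). Both ages called 189 genes, 187 of them in the same direction (97 higher, 90 lower). These were 47.9% of the calls at day 30 and 24.7% of those at day 15. Cyp4b1 and Pex11a went in opposite directions. Among the 189 the median size was 0.51 at day 30 and 0.50 at day 15, and across all 19938 genes the effects at both ages correlated with a Pearson r of 0.42, where genes are not independent replicates.

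Whether an effect differed between the ages was tested for each gene as the day 30 effect minus the day 15 effect. This called 91 genes (0.456%), among them 35 of the 395 called at day 30 and 52 called at day 15 alone. Of the 206 genes called at day 30 and not at day 15, 25 passed this test, so for the others a difference between the ages was not shown. The 91 calls became 23 with the B and plasma cell mean as a covariate. Age differences of single genes are given below without a check under the alternatives.

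A group of effects was larger after weaning. Gsdmc2 differed by 0.90 at day 15 and by 2.54 at day 30 (difference 1.65, limma adjusted p = 0.015), and Gsdmc4 by 0.95 and 2.29 (difference 1.34, limma adjusted p = 0.015). Slc6a14 had an effect of 0.14 at day 15, with means of 5.27 and 5.40, against 1.69 at day 30 (difference 1.55, limma adjusted p = 0.002). The effects on Slc13a2 (1.28 larger), Ano6 (1.06), Rab30 (0.86), Slc52a3 (0.78) and Slc16a10 (0.77) also grew, with limma adjusted p of 0.01, 0.0021, 0.024, 0.042 and 0.002. None of these 5 was called at day 15.

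Among the falls, Ces2a went from -0.26 at day 15 to -1.52 at day 30 (difference -1.26, limma adjusted p = 0.043), Crim1 from -0.14 to -1.03, Ros1 from -0.15 to -0.92, Lrat from -0.01 to -0.81, Cldn2 from -0.42 to -1.06 and Otop3 from -2.07 to -2.93. The limma adjusted p of the age difference was 0.0026 for Crim1, 0.043 for Ros1, 0.0088 for Lrat, 0.017 for Cldn2 and 0.031 for Otop3. Abcb1a had an effect of 0.29 at day 15, not called, and of -0.84 at day 30 (difference -1.14, limma adjusted p = 0.025). The effects on Tmprss15 (-4.25 at day 15) and Naaladl1 (3.25 at day 15) changed between ages by 0.23 and -0.38, which was not called (limma adjusted p = 0.94 and 0.46).

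**Figure D5:**
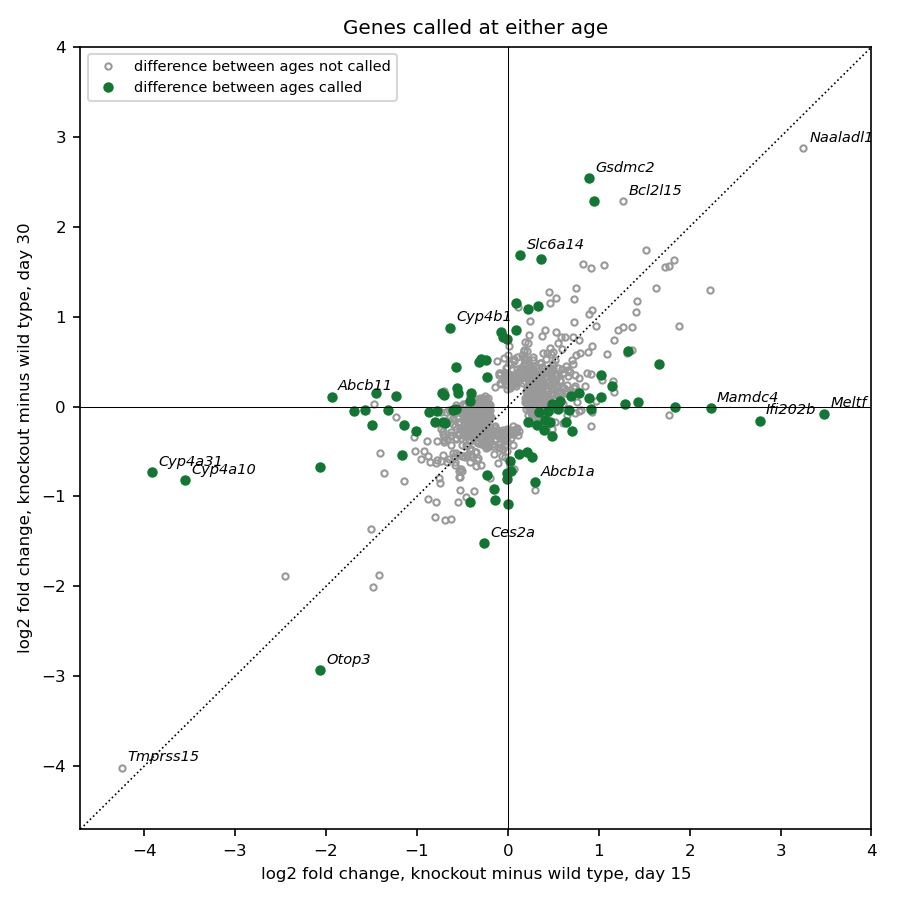
Difference between knockout and wild type at day 30 (vertical) against that at day 15 (horizontal), both log2, for genes called at either age; green points are genes whose effect differed between ages and the dotted line marks equal effects. Tmprss15 and Naaladl1 lie near the line, Meltf and Cyp4a31 are displaced along the horizontal axis, and Gsdmc2 and Slc6a14 lie above the line.

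Other effects were smaller after weaning or were not called there. Cyp4a10, a fatty acid omega-hydroxylase, was at 6.74, 6.65 and 6.80 in wild type and at 6.01, 5.70 and 6.02 in knockout at day 30, a difference of -0.82 (SE 0.11), against -3.55 at day 15. Its wild type mean was 10.32 at day 15 and 6.73 at day 30, and its knockout mean was 6.77 and 5.91. Cyp4a31, a close relative, differed by -3.92 at day 15 and by -0.73 at day 30 (limma adjusted p = 0.058). The wild type mean of Cyp4a31 was 9.49 at day 15 and 5.36 at day 30, and its knockout mean was 5.57 and 4.63. The Paneth cell genes Defa24 (1.67 at day 15) and Itln1 (1.32 at day 15) rose less at day 30, and Cyp4b1 fell by 0.64 at day 15 and rose by 0.88 at day 30. The Cyp4b1 call at day 30 ended with the B and plasma cell mean as a covariate.

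Meltf, an iron-binding membrane protein, was at 7.03, 7.17 and 7.05 in wild type and at 7.001, 6.97 and 7.05 in knockout at day 30, where the groups overlapped, against a rise of 3.48 at day 15. Mamdc4, an endosomal protein of suckling enterocytes, the folate receptor gene Folr1 and Aoc1, which encodes diamine oxidase, had effects of -0.02, 0.00 and 0.05 at day 30, against 2.23, 1.84 and 1.43 at day 15. The interferon-inducible gene Ifi202b had effects of 2.77 at day 15 and -0.16 at day 30. Abcb11, the bile salt export pump gene, had effects of -1.93 and 0.11, and S100b, a calcium-binding protein of glia, of -1.70 and -0.05. Several of these genes lay below the array medians in both genotypes at day 30. Their wild type and knockout means there were 5.63 and 5.75 (Abcb11), 6.21 and 6.16 (S100b) and 5.95 and 5.79 (Ifi202b). Those of Folr1 were 6.47 and 6.47, and those of Mamdc4 6.72 and 6.70. Differences of such dim genes are understated, and whether the knockout effect itself ended after weaning was not tested.

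Some genes that rose at day 30 had been at far higher levels in wild type before weaning. Slc34a2 had wild type means of 11.45 at day 15 and 6.32 at day 30, and knockout means of 12.28 and 7.90. Npl had wild type means of 11.36 and 7.76, and knockout means of 12.28 and 9.30. Mep1a had wild type means of 10.18 and 6.82, and knockout means of 10.71 and 8.03. Bcl2l15 and Gml had the other course, with wild type means of 5.48 and 6.83 at day 15 and 7.66 and 8.83 at day 30. The wild type arrays of day 30 enter both the genotype and the age difference, so these values are set side by side without a test.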

How the data were processed

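Total RNA from pooled duodenal segments was labelled as biotinylated cRNA from 5.5 micrograms and hybridised to Affymetrix arrays, per the labels' protocols. The authors deposited log2 expression values per feature, made with RMA in Affymetrix Expression Console 1.1, per the submitters' processing notes. Base 2 was inferred from that method, since the table does not state it. RMA equalises the distributions of the arrays and so removes a shift common to most genes, and differences of very dim or very bright genes are understated. No depth applies to arrays, and 3 pools per group limit the precision.

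Of 35557 features, 21789 had exactly 1 gene symbol, 1621 had several and 12147 had none listed in the platform annotation. The highest mean feature over 12 arrays was kept per gene (999 genes had several), which left 19938 genes. Entrez identifiers matched a RefSeq table of GRCm38.p6 for 21698 features, and 0 symbols were updated. The sources used here do not give the build of the array annotation, so coordinates are those of RefSeq promoters only.

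Group means were fitted to all 12 arrays with limma 3.58.1 in R 4.3.3 (8 residual degrees of freedom, 4.49 prior), with eBayes and Benjamini-Hochberg adjustment over all genes at 0.05. Errors of means are SDs and errors of differences are moderated SEs. A permutation test of 3 against 3 arrays could not go below 0.1 and was not used. The members and the 51 gene lists (753 entries, 679 measured) were chosen with earlier results of these data known, so lists are described by counts and medians without a test. Named genes are Onecut1 to Onecut3 and Ada, the 24 largest rises and falls called without overlap of the groups (no predicted loci or receptor segments), every called list member, up to 4 list members of smallest p, and the 8 largest age differences in each direction, with Xist and Y-linked genes as a check.

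Alternatives were an intensity trend or robust moderation, array weights, the 6 arrays of day 30 alone, other filters and feature rules, median centring, the replicate number as a block, list means or Xist as covariates, and leaving out each array. The labels give no scan date or other batch. Same-numbered arrays of day 30 did not deviate together (r of -0.115, 0.122 and -0.244), so the numbers were not taken as pairs. Those of day 15, which share the fit, had r of 0.359, -0.009 and 0.261. Whether the numbers mark a shared batch was not tested. On simulated arrays for the comparison at day 30 over 19938 genes, 74.6% of 67 genes changed by 0.5, 100% of 67 changed by 1 and 98.5% of 66 changed by 2 were called in the right direction, with 9 unchanged genes called. The simulated noise was normal, with the measured SD of each gene and independent between genes. It held no variation shared by the genes of an array, so these shares may be better than on the real arrays.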

Additional observations from a re-analysis of the deposited data

Results flagged for a closer look

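In 35 named genes the test of the difference between ages passed, given here as the day 30 effect minus the day 15 effect on the log2 scale. Among genes whose effect was called at day 15 and not at day 30, it was -3.56 for Meltf, -2.93 for Ifi202b, -2.25 for Mamdc4, -1.84 for Folr1, -1.38 for Aoc1 and -1.26 for Slc17a5, the lysosomal exporter of sialic acid. It was 3.19 for Cyp4a31, 2.05 for Abcb11, 1.65 for S100b, 1.60 for the chymosin gene Cym, 1.53 for the complement gene C8b, and 0.73 and 0.55 for Acadm and Ehhadh, enzymes of fatty acid oxidation. C8b, like Abcb11 and S100b, was dim at day 30, with means of 6.15 in wild type and 6.11 in knockout.

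Among genes with a negative effect called at day 30, the difference was -1.26 for Ces2a, -1.14 for Abcb1a, -0.89 for Crim1, -0.87 for Otop3, -0.82 for Cblif, -0.80 for Lrat, -0.77 for Ros1, -0.71 for Gla and -0.64 for Cldn2. It was 2.73 for Cyp4a10, whose fall was larger at day 15. Among rises it was 1.65 for Gsdmc2, 1.55 for Slc6a14, 1.34 for Gsdmc4, 1.28 for Slc13a2, 1.06 for Ano6, 0.86 for Rab30, 0.78 for Slc52a3 and 0.77 for Slc16a10, and -1.20 for Defa24 and -0.70 for Itln1, which rose more at day 15. Cyp4b1, which fell at day 15 and rose at day 30, had 1.52, and Gcnt3, called at neither age, had 0.62.

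Features outside the gene table also differed. When all 35557 features were tested, 328 were called at day 30, and 70 of them had no single gene symbol (53 with no listed gene and 17 with several). Of these, 51 were higher and 19 lower in the knockout, and those with no listed gene ran from -2.14 to 3.63 on the log2 scale. Among those with several symbols, the features shared by Gm2663 and 1810009J06Rik rose most, by 2.82 and 2.93 (limma adjusted p = 0.0072 and 0.0065). The largest fall was -1.16, in a feature shared by Cyp4a32, Cyp4a31 and Cyp4a10. With 3 arrays per group, single genes were not tested for an outlying array.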

How the results depend on the processing

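The 395 genes called at day 30 became 596 with an intensity trend, 237 with the 6 arrays of day 30 alone, 141 with the B and plasma cell mean and 185 with Xist as a covariate, and 218 to 420 without 1 array (225 without knockout replicate 1, 260 without wild type replicate 2, 218 without wild type replicate 3). The 764 called at day 15 became 1218 with array weights, 112 with the smooth muscle mean, 255 with the stomach mean, and 340 to 782 without 1 array (340 and 445 without knockout replicate 2 or 3 of day 15, and 505, 429 and 412 without wild type replicate 1, 2 or 3 of day 15). The 91 differences between ages became 177 with the trend, 155 with array weights, 33 with the smooth muscle mean, 54 with the stomach mean, 23 with the B and plasma cell mean, 33 with Xist, and 47 to 123 without 1 array (47 without wild type replicate 3 of day 30 or 2 of day 15, 60 without wild type replicate 3 of day 15, and 49 and 56 without knockout replicate 2 or 3 of day 15). No alternative reversed a called difference at day 30. Of 110 named genes called at day 30, 53 were called under every alternative that tested them and without each array, and 39 lost the call without at least 1 array. The cause of these changes was not tested.

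The labels do not say whether arrays with the same replicate number share more than the number. With the replicate block the counts were 331 at day 30, 611 at day 15 and 80 for the difference, and 10 of the 110 calls ended. An alternative chosen after seeing the data, the 6 arrays of day 30 with the replicate block, called 169 genes, 147 of them among the 395, and ended 39 of the 110 calls.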
